A study of Mus musculus with 107 samples.

Results

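Dll4, Notch1, Notch4, Jag1, Hey1, Apln, Aplnr, Esm1 and Unc5b are genes of Notch signaling and of endothelial tip cells, the cells that lead a growing vessel. They were taken from the expression table by gene symbol, each symbol matched 1 row, and they are 9 of the 50686 genes in the table. Their expression was measured by RNA-seq in tumors of 12 mouse syngeneic models, in which a mouse cancer line is implanted under the skin of immunocompetent mice of 7 weeks of age. The comparisons ask how these genes changed with lenvatinib (LEN), an oral inhibitor of the receptors for VEGF, FGF and other growth factors, and with tumor growth over the same days without drug. The 35 treatment-naïve tumors were collected at baseline, when tumors were about 100 mm3, and 36 untreated tumors (NT) and 36 tumors of mice given LEN orally at 10 mg/kg each day over 7 days were collected on day 8. Each model had 3 tumors per group, except for treatment-naïve MC38 with 2. The models BNL (cell line BNL 1ME A.7R.1), RAG, 4T1, CT26 (CT26.WT), EMT6 and Renca grew in BALB/cAnNCrlCrlj mice, MC38 and B16F10 (B16-F10) in C57BL/6NCrl, LL2 (LL/2) in C57BL/6JCrl, MBT2 in C3H/HeNCrl, KLN205 in DBA/2NCrl and Hepa (Hepa 1-6) in C57L/J mice. No tumor carried an introduced genetic change named in the labels. Each model is a single cell line, so its differences from other models cannot be told apart from those of the line, the strain or the implantation.

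In a sprouting vessel, VEGF raises the Notch ligand Dll4 in tip cells, and Dll4 on a tip cell activates Notch receptors on its neighbors, which then take the stalk cell fate. Jag1 is a second endothelial Notch ligand that opposes Dll4 during sprouting, Notch1 and Notch4 are receptors, and Hey1 is a transcription factor that is a direct target of Notch. Esm1 (a secreted proteoglycan also called endocan) and Apln (the peptide apelin) mark tip cells, Aplnr is the apelin receptor on neighboring endothelial cells (ECs), and Unc5b is a guidance receptor for netrins, Flrt proteins and Robo4. Cancer cells can also express several of these genes, and a bulk tumor sample adds both sources together. In such samples, fewer ECs and less RNA per EC cannot be told apart.

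The values are TPM, a level per transcript length scaled to a fixed total. The number of reads cannot be had from such values, so depth and counting precision are unknown. The share of TPM in protein-coding genes ran from 27.5% to 66.6%. The lowest share was that of 4T1 LEN replicate 4, in which the gene Gm26917 alone held 24.2% of TPM. The other 4T1 LEN tumors had 45.3% and 43.8%, and the part of this in the 4T1 values was not tested. Melanocyte and hepatocyte genes separated the B16F10 and Hepa tumors from the rest. The summed TPM of the melanocyte genes Tyr, Dct and Pmel was between 4133 and 5146 in the 9 B16F10 tumors and at most 2.22 in the other 98 tumors, and that of the hepatocyte genes Alb, Afp and Apoa1 was between 2850 and 4099 in the 9 Hepa tumors and at most 20.2 in the others, the tumors of the liver line BNL included. The tumors of 1 model and group are separate samples in the labels, but the labels do not name the animals. The BNL tumors treated with LEN stood apart in skeletal muscle, with a summed TPM of Ckm, Acta1 and Myh4 between 1161 and 1682 against 22.3 to 79.3 in NT and 203 to 481 in treatment-naïve BNL tumors.

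Promoter sequences are shown for the 4 genes with the largest falls under LEN, as the region that a shared regulator would read. Each is the stretch of 250 bases before the RefSeq start site on the gene's own strand, in the build GRCm38.p6. RefSeq entries were at hand for 7 of the 9 genes, which leaves out Hey1 and Aplnr. Capitals mark matches to any of 4 short motifs searched on both strands, namely TGGGAA (the site of RBPJ, the DNA-binding partner of Notch), ACGTG (the core of the hypoxia response element), AGGAAG (an ETS site) and TAAACA (a forkhead site), which share no overlapping matches in these windows.
Dll4, chr2:119325534-119325783, plus strand: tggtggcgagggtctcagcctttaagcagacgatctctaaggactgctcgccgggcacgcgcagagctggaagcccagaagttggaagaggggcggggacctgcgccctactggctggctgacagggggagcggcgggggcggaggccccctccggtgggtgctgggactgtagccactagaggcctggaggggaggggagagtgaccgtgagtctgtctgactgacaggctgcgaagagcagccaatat
Esm1, chr13:113209409-113209658, plus strand: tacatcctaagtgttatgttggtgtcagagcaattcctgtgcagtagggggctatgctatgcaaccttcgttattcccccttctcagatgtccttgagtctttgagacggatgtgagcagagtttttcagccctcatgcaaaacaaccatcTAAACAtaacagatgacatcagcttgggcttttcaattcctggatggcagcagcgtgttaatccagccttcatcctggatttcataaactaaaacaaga
Notch4, chr17:34564045-34564294, plus strand: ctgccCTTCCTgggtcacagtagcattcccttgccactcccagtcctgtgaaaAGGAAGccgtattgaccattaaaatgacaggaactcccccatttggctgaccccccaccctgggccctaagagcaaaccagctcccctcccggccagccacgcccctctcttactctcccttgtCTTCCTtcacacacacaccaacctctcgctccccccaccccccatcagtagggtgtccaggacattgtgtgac
Apln, chrX:48034854-48035103, minus strand: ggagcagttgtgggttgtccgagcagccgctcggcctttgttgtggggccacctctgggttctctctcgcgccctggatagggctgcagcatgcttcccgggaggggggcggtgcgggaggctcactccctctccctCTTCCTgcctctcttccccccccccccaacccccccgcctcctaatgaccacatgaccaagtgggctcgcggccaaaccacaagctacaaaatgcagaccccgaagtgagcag

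The Notch4 window held 3 matches to the ETS motif, starting 245, 197 and 73 bases before the start site, and the Apln window held 1, starting 113 bases before it. The only match in the Esm1 window was a forkhead motif that starts 99 bases before the start site. The Dll4 window matched none of the 4 motifs, and neither did the windows of Jag1, Notch1 and Unc5b. None of the 7 windows held the RBPJ or the hypoxia motif. Of the 32851 RefSeq promoter windows of this length, 21.6% held the RBPJ motif, 16.6% the hypoxia motif, 29.5% the ETS motif (a share that 2 of 7 members match closely) and 12.0% the forkhead motif. G and C made up 44.0% of the Esm1 window, against 58.4% of the Notch4, 65.2% of the Apln and 65.6% of the Dll4 window.

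LEN lowered 6 of the 9 genes on average over the 12 models and raised 0 of them. Esm1 fell most, followed by Dll4, Notch4, Apln, Hey1 and Unc5b, whereas Aplnr, Notch1 and Jag1 did not pass the test. The test was limma on log2(TPM + 1), with p adjusted over the 17351 genes that averaged 1 TPM or more and a threshold of 0.05, and all 9 genes passed this minimum, Hey1 only through its level in BNL. Without BNL, Hey1 was not tested and 5 members were lower. Of those 17351 genes, 9.87% were called lower and 13.7% were called higher. Rescaling by the upper quartile turned this split from 1712 genes lower and 2371 higher into 3160 lower and 2277 higher, and rescaling over protein-coding genes turned it into 2803 lower and 2527 higher. The median log2 difference was -0.34 over the 9 genes and -0.0019 over all genes tested. All 8 pan-endothelial genes used as a reference (Pecam1, Cdh5, Tie1, Erg, Esam, Cldn5, Egfl7 and Emcn, which are expressed by ECs of most vessels) were lower in 12 of 12 models, with mean log2 differences between -0.59 for Erg and -1.17 for Cdh5.

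**Figure D1:**
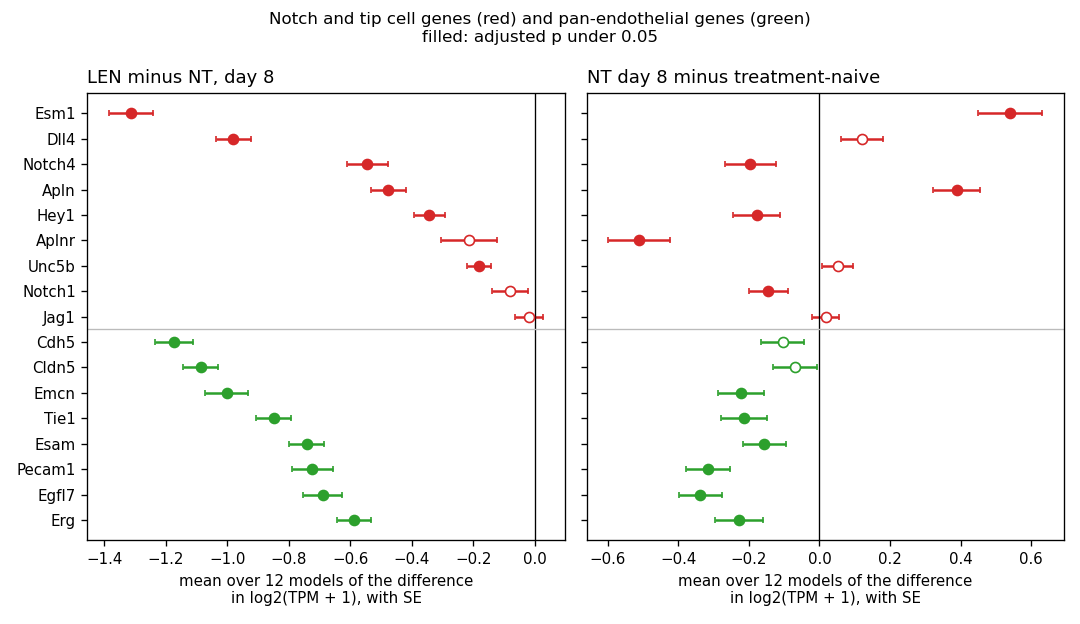
Mean over the 12 models of the difference in log2(TPM + 1), with its standard error, for the 9 Notch and tip cell genes (red) and the 8 pan-endothelial genes (green), LEN minus NT on the left and NT on day 8 minus treatment-naïve on the right. Filled points passed an adjusted p of 0.05. On the left Dll4 (-0.98) lies among the pan-endothelial genes, Esm1 (-1.31) lies below all 8 of them and Jag1 (-0.018) lies near 0, and on the right Esm1 (0.54) and Apln (0.39) are the filled points above 0.

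Dll4 (chr2:119325784-119335962, plus strand, GRCm38), the ligand that VEGF induces in tip cells, was lower with LEN in every model. In Renca tumors, Dll4 was 3.71, 4.43 and 5.85 TPM in NT and 0.85, 1.03 and 1.07 TPM in LEN. In B16F10 tumors, it was 2.55, 3.06 and 3.73 TPM in NT and 0.49, 0.61 and 0.62 TPM in LEN. In both models every LEN tumor lay far below every NT tumor. In MC38 it was 1.86, 2.18 and 2.30 TPM in NT and 1.08, 1.30 and 2.18 TPM in LEN, and in Hepa 3.95, 4.57 and 4.96 TPM in NT and 2.11, 2.44 and 4.11 TPM in LEN. These were the 2 models in which the groups overlapped, each through a single LEN tumor that lay within the NT range. In the other 10 models, all LEN tumors lay below all NT tumors, where 10.6% of all gene and model pairs did so. Over the 12 models the ratio of mean TPM in LEN to NT was 0.378 in the median, from 0.184 in B16F10 to 0.719 in MC38. The mean difference was -0.98 on the log2 scale (SE 0.0571, adjusted p = 1.11e-19). Dll4 shares 214 exonic bases with Gm14207 on the opposite strand, which was at most 1.00 TPM in any tumor.

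Esm1 (chr13:113209659-113218098, plus strand) had the largest fall of the 9 genes and an exception in a single model. In B16F10 it was 7.14, 9.92 and 10.7 TPM in NT and 0.04, 0.17 and 0.41 TPM in LEN. In BNL it was 3.97, 5.13 and 5.76 TPM in NT and 0.09, 0.17 and 0.38 TPM in LEN, and in Renca 3.36, 4.10 and 6.00 TPM in NT and 0.12, 0.28 and 0.38 TPM in LEN. In these 3 models Esm1 came close to 0 in LEN, and the groups were separate in 11 of 12 models with LEN lower, against 10.6% of all gene and model pairs. In CT26, by contrast, Esm1 was 138, 165 and 225 TPM in NT and 231, 231 and 234 TPM in LEN, so that each LEN tumor lay above each NT tumor, as in 12.7% of all gene and model pairs. Fitted alone, CT26 had a log2 difference of 0.43 for Esm1, which did not pass the test (adjusted p = 0.538). CT26 already stood apart without treatment, at 111, 117 and 189 TPM, where no treatment-naïve tumor of another model exceeded 6.94 TPM. The mean difference was -1.31 on the log2 scale (SE 0.0721, adjusted p = 1.19e-20), and without CT26 it was -1.47. Fold changes on the log2(TPM + 1) scale understate the change of genes this low, and the ratio of mean TPM, LEN to NT, was 0.184 in the median and 0.0223 in B16F10.

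**Figure D2:**
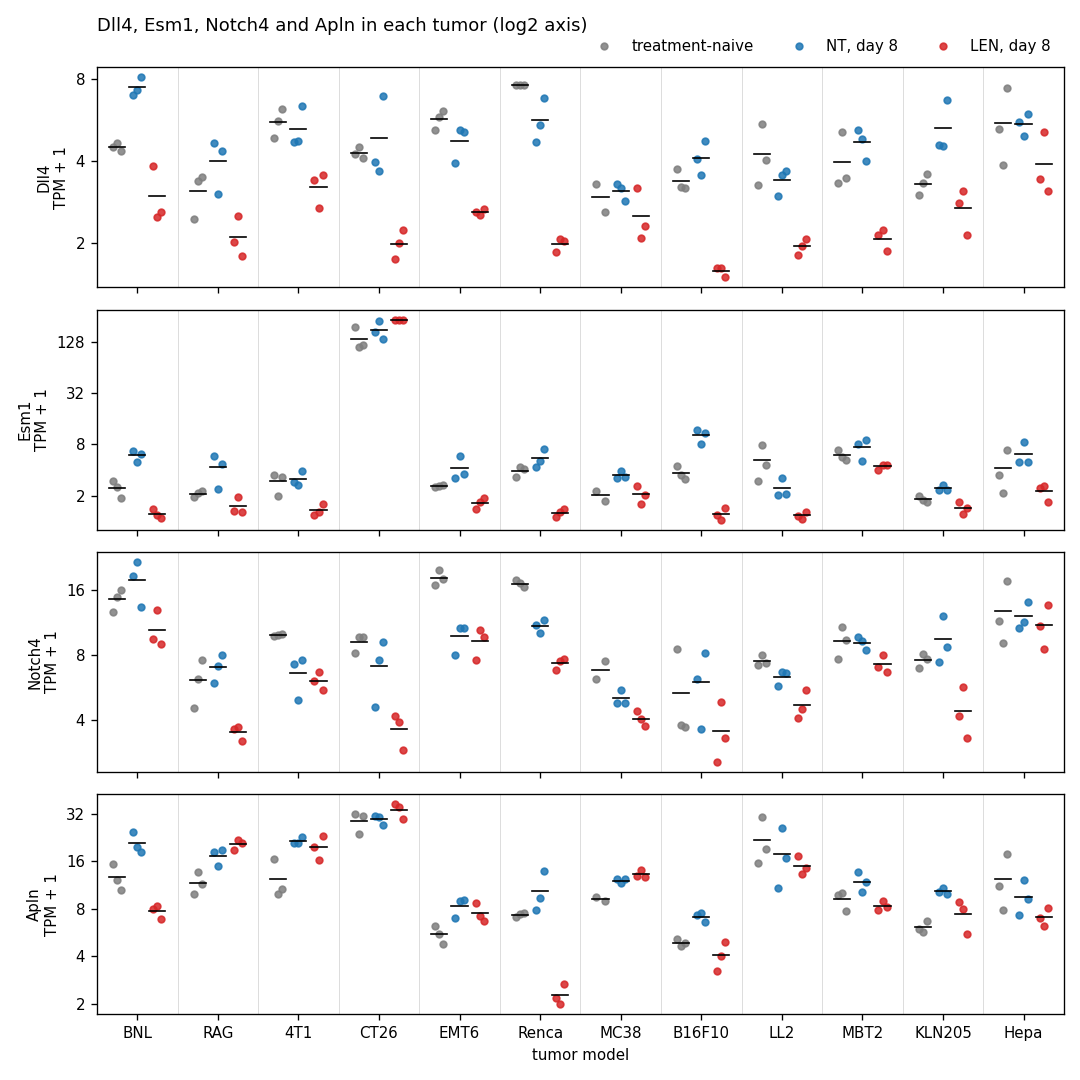
TPM + 1 of Dll4, Esm1, Notch4 and Apln in each tumor on a log2 axis, by model, for treatment-naïve (gray), NT (blue) and LEN (red) tumors. Bars mark the group means. The red points lie lowest for Dll4 in most models, Esm1 in CT26 lies above 100 TPM in every group, and the fall of Apln is steepest in Renca, from 6.85 to 12.9 TPM in NT to 0.99 to 1.67 TPM in LEN.

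Of the receptors, Notch4 (chr17:34564268-34588503, plus strand), which is largely restricted to ECs, fell with LEN, and Notch1, which many cell types express, did not pass the test. In BNL tumors, Notch4 was 12.3, 17.7 and 20.7 TPM in NT and 7.98, 8.48 and 11.9 TPM in LEN. In RAG it was 4.90, 6.10 and 7.02 TPM in NT and 2.17, 2.61 and 2.71 TPM in LEN. LEN tumors lay wholly below NT tumors in 8 models, against 10.6% of all gene and model pairs, and had the lower mean in 12 of 12. The mean difference was -0.54 on the log2 scale (SE 0.0673, adjusted p = 7.73e-09), with a median ratio of mean TPM of 0.664. The groups overlapped in 4T1, EMT6, B16F10 and Hepa. In Hepa, Notch4 was 9.72, 10.4 and 13.2 TPM in NT and 7.52, 9.90 and 12.7 TPM in LEN.

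The mean difference for Notch1 (chr2:26457903-26516663, minus strand) was -0.080 on the log2 scale (SE 0.0585, adjusted p = 0.355), with 7 models lower and 5 higher. In 4T1 it was 20.2, 21.9 and 23.2 TPM in NT and 9.43, 15.8 and 17.9 TPM in LEN, and in LL2 10.2, 10.2 and 10.6 TPM in NT and 5.47, 7.00 and 8.06 TPM in LEN. In BNL it was 19.1, 21.2 and 23.02 TPM in NT and 23.7, 24.5 and 34.2 TPM in LEN, a rise that did not pass with BNL fitted alone (adjusted p = 0.117). The LEN tumors were thus all lower in 4T1 and LL2, all higher in BNL, and mixed with NT tumors in the other 9 models, counts near the 10.6% and 12.7% of all gene and model pairs that lay wholly below and above. The 4T1 LEN tumors include replicate 4, with 27.5% of TPM in protein-coding genes, and its part in the fall of Notch1 there was not tested. Notch1 shares 1068 exonic bases with 0610009E02Rik on the opposite strand, whose median was 1.04 TPM in NT and 1.02 TPM in LEN. Whether the counting used strand was not given in the sources used here, so reads of Dll4 and Notch1 and of their antisense neighbors cannot be told apart where they overlap.

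Jag1 (chr2:137081456-137116644, minus strand), the opposing ligand, showed no common direction. Its mean difference was -0.018 on the log2 scale (SE 0.0447, adjusted p = 0.830). In BNL it was 48.0, 50.1 and 52.2 TPM in NT and 61.3, 63.8 and 66.5 TPM in LEN, and in MBT2 9.75, 11.03 and 11.8 TPM in NT and 13.8, 15.3 and 18.3 TPM in LEN. In these 2 models all LEN tumors were higher, where 12.7% of all gene and model pairs were so. In Renca it was 4.99, 5.17 and 5.43 TPM in NT and 4.02, 4.32 and 4.64 TPM in LEN, and in LL2 1.98, 2.20 and 2.45 TPM in NT and 1.62, 1.64 and 1.70 TPM in LEN. There all LEN tumors were lower, so that the counts in both directions were near those shares over all genes. Fitted alone, BNL had Jag1 as the only member of the 9 that passed in the direction of a rise, by 0.34 on the log2 scale (SE 0.0607, adjusted p = 0.00636), where 26.3% of the genes of that model were called higher. This call was lost after rescaling by the upper quartile (adjusted p = 0.161) or over protein-coding genes (adjusted p = 0.0609) and in the fit of all day 8 tumors (adjusted p = 0.0998).

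Hey1 (chr3:8663359-8667256, minus strand), the Notch target, fell by 0.34 on the log2 scale (SE 0.0506, adjusted p = 4.69e-07) with the lower mean in 9 of 12 models. It was low in most tumors, with a median of 0.875 TPM in NT and 0.415 TPM in LEN. In KLN205 it was 1.55, 1.75 and 1.85 TPM in NT and 0.23, 0.27 and 0.50 TPM in LEN, and in Renca 0.90, 1.37 and 1.42 TPM in NT and 0.17, 0.20 and 0.23 TPM in LEN. All LEN tumors were lower in 6 models, against 10.6% of all gene and model pairs. BNL stood apart in level, with 9.59, 10.2 and 10.7 TPM in NT and 9.65, 10.9 and 11.2 TPM in LEN. The groups overlapped there, as they did in RAG, 4T1, CT26, MC38 and Hepa, and no tumor of another model exceeded 3.96 TPM. Without BNL, the mean TPM of Hey1 was under the minimum of 1 and it was not tested, so at this minimum it entered the test only through BNL, where the groups overlapped. With no minimum and all models, its adjusted p was 8.24e-07.

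Apln (chrX:48025146-48034853, minus strand), the tip cell peptide, fell by 0.48 on the log2 scale (SE 0.0569, adjusted p = 3.34e-09), and its fall was concentrated in some models. In Renca it was 6.85, 8.35 and 12.9 TPM in NT and 0.99, 1.18 and 1.67 TPM in LEN. In BNL it was 17.3, 18.6 and 23.7 TPM in NT and 5.86, 7.01 and 7.32 TPM in LEN, and in B16F10 5.57, 6.32 and 6.49 TPM in NT and 2.22, 3.04 and 3.95 TPM in LEN. All LEN tumors were lower in these 3 models and in MBT2 and KLN205. In RAG, however, Apln was 14.0, 17.3 and 18.0 TPM in NT and 18.0, 19.9 and 20.9 TPM in LEN, and in MC38 10.7, 11.3 and 11.3 TPM in NT and 11.7, 11.9 and 13.2 TPM in LEN. There all LEN tumors were higher, though in RAG by as little as 17.96 against 17.98 TPM. The 5 models lower stand against 10.6% of all gene and model pairs, and the 2 higher are near the 12.7% of pairs over all genes. The F test for a difference between models gave an adjusted p of 2.0e-09, and 35.3% of all genes passed that test.

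Aplnr (chr2:85136225-85139923, plus strand), the receptor for apelin, had a mean difference of -0.21 on the log2 scale (SE 0.0902, adjusted p = 0.0787) and the lower mean in 8 of 12 models. In BNL it was 9.80, 9.84 and 10.1 TPM in NT and 4.08, 4.86 and 5.05 TPM in LEN, with all LEN tumors lower, as they also were in 4T1 and Renca. In B16F10 it was 0.75, 1.48 and 1.70 TPM in NT and 1.88, 2.52 and 2.60 TPM in LEN, the only model with all LEN tumors higher, where over all genes 10.6% of pairs were wholly lower and 12.7% wholly higher. Fitted alone, B16F10 had a log2 difference of 0.55 for Aplnr, which did not pass the test (adjusted p = 0.167). The mean for Aplnr passed the threshold after rescaling by the upper quartile (adjusted p = 0.0389) or over protein-coding genes (adjusted p = 0.0470), and also without the model B16F10 (0.0294), Hepa (0.0272) or RAG (0.0253). It also passed when any of 5 single tumors was left out, namely RAG LEN replicate 4, Hepa LEN replicate 1, MBT2 NT replicate 5, LL2 NT replicate 2 and EMT6 NT replicate 1, with an adjusted p as low as 0.0254. Apela, the other ligand of Aplnr, had a mean TPM under 1 and was not tested.

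Unc5b (chr10:60762593-60831581, minus strand), the guidance receptor, fell by 0.18 on the log2 scale (SE 0.0383, adjusted p = 0.000254), the smallest of the 6 falls, with 8 models lower. With 1 model left out, the difference ran from -0.22 to -0.11, and the adjusted p was at most 0.0381. In MBT2 it was 2.13, 2.82 and 2.99 TPM in NT and 0.68, 0.87 and 1.09 TPM in LEN. In RAG it was 20.1, 23.1 and 28.6 TPM in NT and 16.5, 16.7 and 17.5 TPM in LEN. All LEN tumors were lower in MBT2, RAG and B16F10, and all were higher in BNL, against 10.6% and 12.7% of all gene and model pairs. In BNL, Unc5b was 63.7, 63.9 and 63.9 TPM in NT and 68.1, 70.4 and 74.9 TPM in LEN. This rise did not pass with BNL fitted alone (adjusted p = 0.0802). The share of TPM in protein-coding genes in BNL was 54.3% to 57.4% in NT and 60.2% to 61.9% in LEN, and its part in the rise was not tested. Of the partners of Unc5b, Robo4, an endothelial receptor, fell by 0.84 on the log2 scale (SE 0.0482, adjusted p = 5.13e-20) in 12 of 12 models, from a median of 3.48 TPM in NT to 1.43 TPM in LEN. The netrin Ntn1 (0.15, adjusted p = 0.0307) and the ligands Flrt3 (0.18, adjusted p = 0.00593) and Flrt2 (0.19, adjusted p = 0.0119) rose on average, where 13.7% of all genes were called higher. Ntn1 was lower in 5 of 12 models, and Flrt3 and Flrt2 in 3 each. Ntn4 had a log2 difference of -0.030 (adjusted p = 0.702).

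**Figure D3:**
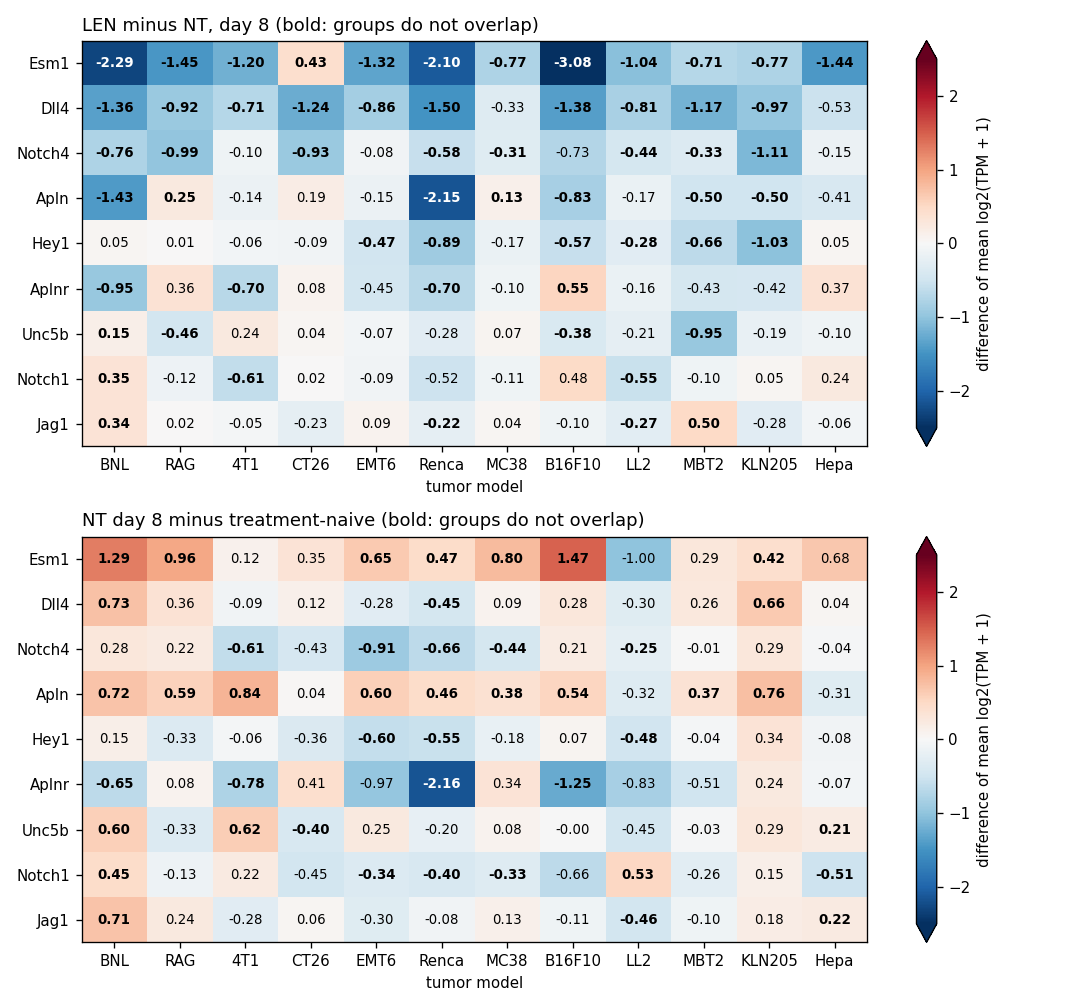
Difference of the mean log2(TPM + 1) for each of the 9 genes (rows) in each of the 12 models (columns), LEN minus NT above and NT on day 8 minus treatment-naïve below, with blue for lower and red for higher. Bold values mark models in which the tumors of the 2 groups do not overlap. In the upper panel Dll4 is negative in every column and Esm1 is positive in CT26 alone (0.43), and in the lower panel Aplnr reaches -2.16 in Renca.

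Fitted each alone, 3 models had members that passed in the direction of a fall. In BNL these were Esm1 (-2.29, SE 0.191), Apln (-1.43, SE 0.138), Dll4 (-1.36, SE 0.190), Aplnr (-0.95, SE 0.101) and Notch4 (-0.76, SE 0.212), with adjusted p between 0.0003 and 0.0331, where 5.21% of genes were called lower. In Renca they were Apln (-2.15, SE 0.224), Esm1 (-2.10, SE 0.207), Dll4 (-1.50, SE 0.166) and Notch4 (-0.58, SE 0.0966), with adjusted p between 0.00139 and 0.0106, where 7.15% of genes were called lower. In B16F10 they were Esm1 (-3.08, SE 0.197), Dll4 (-1.38, SE 0.174) and Apln (-0.83, SE 0.171), with adjusted p between 0.000811 and 0.0281, where 2.42% of genes were called lower. Skeletal muscle genes moved with LEN in BNL (above) and in B16F10, where their summed TPM was 1.06 to 12.4 in NT and 90.8 to 140 in LEN, and their part in these results was not tested. The split over all genes moved with the scaling. In BNL, 887 genes lower and 4478 higher became 1930 and 2180 after rescaling by the upper quartile and 1493 and 2780 over protein-coding genes, in B16F10 384 and 1358 became 979 and 1196 over protein-coding genes, and in Renca 1132 and 777 became 1311 and 1594 and then 1450 and 1391. The named falls of Esm1, Dll4, Apln, Aplnr and Notch4 passed under both rescalings. In the other 9 models no member passed, and few genes of any kind did, from 1 in CT26 to 142 in EMT6. Over all models alone, 12 of 96 tested pairs of member and model were called lower and 1 higher, against 1.30% and 3.56% of all gene and model pairs. With the spread pooled over all 72 day 8 tumors, each of the 9 genes was tested in each of the 12 models, more pairs than the 96 above. In that fit 33 pairs were called lower and 0 higher, against 2.88% and 4.17% of all gene and model pairs. Among the 33 were Dll4 in 10 models, Esm1 in 8 and Hey1 in 4. Hey1 passed the minimum of that fit only through its level in BNL, which was not among the 4.

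The effect of LEN differed between models for 8 of the 9 genes by the F test, Aplnr being the exception with an adjusted p of 0.0567, where 35.3% of all genes passed. The smallest adjusted p were those of Apln (2.0e-09), Esm1 (2.07e-09), Unc5b (6.17e-05) and Hey1 (0.000725), followed by Dll4 (0.00865). Hey1 passed the minimum of 1 TPM only with BNL among the models, so its value has no counterpart without that model. Those of Notch1 (0.0181), Jag1 (0.0459) and Notch4 (0.0493) lost the call without BNL, at 0.0539, 0.168 and 0.0603, and those of Jag1 and Notch4 were also lost without any of 5 and 9 other models. Without MC38 the value for Dll4 was 0.0558.

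Over the same days without drug, the tip cell markers Esm1 and Apln rose and the receptor Aplnr fell. The NT group enters both this comparison and that with LEN, so their values are given side by side only. Esm1 was 0.54 higher on day 8 than at baseline (SE 0.0914, adjusted p = 1.38e-05) in 11 of 12 models, and Apln was 0.39 higher (SE 0.0675, adjusted p = 1.97e-05) in 10 of 12 models. Aplnr, the apelin receptor, fell by 0.51 (SE 0.0873, adjusted p = 1.54e-05) in 8 of 12 models. Lower by less were Notch4 (-0.20, adjusted p = 0.0344), Hey1 (-0.18, adjusted p = 0.0397) and Notch1 (-0.14, adjusted p = 0.0398). Dll4 (0.12, adjusted p = 0.126), Unc5b (0.052, adjusted p = 0.401) and Jag1 (0.018, adjusted p = 0.770) did not pass, but Dll4 passed without LL2 (adjusted p = 0.0443) or Renca (adjusted p = 0.0352). Of 17428 genes tested, 11.5% were called lower and 17.0% higher, or 2002 against 2971 genes, a split that became 3519 against 1420 after rescaling by the upper quartile and 3843 against 1200 over protein-coding genes. The calls of Notch4, Hey1 and Notch1 were lost with no minimum TPM (adjusted p = 0.0582, 0.0662 and 0.0661), and when any of 9, 21 and 27 of the 71 tumors was left out.

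For Esm1 in BNL, the treatment-naïve tumors had 0.89, 1.54 and 1.96 TPM and the NT tumors 3.97, 5.13 and 5.76 TPM. In B16F10 the values were 2.14, 2.48 and 3.46 TPM and 7.14, 9.92 and 10.7 TPM. The NT tumors lay wholly above the treatment-naïve ones in 7 models for Esm1 and in 9 for Apln, against 15.8% of all gene and model pairs. LL2 went the other way for Esm1, from 1.99, 3.59 and 6.94 TPM at baseline to 1.05, 1.06 and 2.22 TPM in NT, with an overlap. For Apln in 4T1, the values rose from 8.89, 9.67 and 15.6 TPM to 19.9, 20.0 and 21.9 TPM. For Aplnr in Renca, the values were 13.1, 16.7 and 19.1 TPM at baseline and 2.27, 2.69 and 3.65 TPM in NT. The groups did not overlap in either case, and for Aplnr all NT tumors were lower in 4 models, against 13.7% of all pairs. Skeletal muscle and adipocyte genes moved with this comparison. The 3 muscle genes (Ckm, Acta1, Myh4) and the 3 adipocyte genes (Adipoq, Plin1, Fabp4) were called lower in NT, with a median summed TPM of 72.01 at baseline and 20.6 in NT for muscle and of 25.5 and 15.8 for adipocytes, and their part in the fall of Aplnr was not tested. Of the 8 pan-endothelial genes, 6 were lower and 0 higher, with a median log2 difference of -0.22. The fibroblast, macrophage, T cell and lymphatic lists of 3 genes had 1 gene each called lower and 0 higher. These were Dcn (-0.65), Cd68 (-0.16), Cd3d (-0.35) and Pdpn (-0.27). Of the 5 mural genes, Des (-0.68) was called lower. The part of these markers in the growth changes was not tested.

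LEN also moved markers of other cells. The summed TPM of the 8 pan-endothelial genes ranged from 51.4 to 195 in NT and from 19.4 to 102 in LEN. Of the 5 mural genes 4 were lower (Rgs5, a pericyte gene, by -0.94) and Des was higher by 0.83. The 3 muscle genes were higher with log2 differences of 1.13 to 1.15, over a range of summed TPM of 0.31 to 110 in NT and 0.24 to 1682 in LEN, with the top values in BNL. The 3 erythroid hemoglobin genes were lower with a median of -2.15, and the 3 T cell genes were higher with a median of 0.40. Of the 3 macrophage genes, Csf1r fell by 0.45 (adjusted p = 1.36e-07) and Adgre1 by 0.37 (adjusted p = 8.57e-05), and Cd68 had a difference of 0.054. The epithelial keratins Krt8 (0.41) and Krt18 (0.40) were higher on average, but each was lower in 5 models and higher in 7. Their effects differed between models by the F test (adjusted p = 1.05e-16 and 8.89e-16). The epithelial gene Epcam did not pass (0.060, adjusted p = 0.516). Of the keratinocyte genes, Krt14 was higher (0.59), and Krt5 (0.54, adjusted p = 0.0984) and Krt10 (0.44, adjusted p = 0.119) did not pass. Of the fibroblast genes, Dcn was higher (0.36), Col1a1 was lower (-0.29) and Pdgfra did not pass (0.015, adjusted p = 0.913). The lymphatic gene Lyve1 fell by 0.62, while Pdpn was higher by 0.35 and Prox1 had a difference of -0.061 (adjusted p = 0.289). Of the adipocyte genes, Adipoq was higher by 0.54 (adjusted p = 0.000333), Fabp4 was lower by 0.42 (adjusted p = 0.00533) and Plin1 was under the minimum. Without BNL, where the muscle genes were highest, the mean differences were -1.22 for Esm1, -0.95 for Dll4, -0.52 for Notch4, -0.39 for Apln and -0.21 for Unc5b, and each of the 5 passed. The part of the other markers in the falls was not tested.

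Set against the pan-endothelial genes, only Esm1 and Dll4 fell further than the EC genes as a group. For this the mean log2(TPM + 1) of the 8 genes was subtracted from each tumor's values before the same fit. Esm1 was -0.46 relative to that mean (SE 0.0791, adjusted p = 4.77e-07, 9 of 12 models lower), and Dll4 was -0.12 (SE 0.0525, adjusted p = 0.0220, 9 of 12 models lower). Among all 17351 genes, 16 or 0.0922% were called lower on this scale and 98.6% were called higher. The remaining 7 members were called higher, with Notch4 at 0.31, Apln at 0.38, Hey1 at 0.51, Aplnr at 0.64, Unc5b at 0.68, Notch1 at 0.78 and Jag1 at 0.84, where the median of all genes was 0.85. Notch1 and Jag1 were thus near the median gene, and Notch4 and Apln lay between it and the EC genes. The place of Hey1 on this scale says little, since at its low level the pseudocount limits how far it can fall. The call for Dll4 was lost without B16F10 (adjusted p = 0.152), EMT6 (0.0530) or Renca (0.0545). The EC genes themselves spread from -0.32 for Cdh5 to 0.27 for Erg on this scale, a range that holds Dll4 and not Esm1, and 3 of them were themselves called lower. With 1 model left out, Esm1 ran from -0.62 to -0.29, so that its smallest fall lay inside that range. The call for Esm1 held without any of the 12 models.

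In treatment-naïve tumors, the levels of all 9 genes differed between models by the F test, as did those of 93.6% of all genes. Jag1 spread over 51.3-fold between model means (F = 301), and Dll4 over 3.40-fold (F = 8.66). Jag1 was 73.3, 79.0 and 92.0 TPM in KLN205, then 46.1 to 49.2 TPM in Hepa and 27.6 to 32.8 TPM in BNL, each apart from the next, and reached its lowest level at 1.24, 1.44 and 2.08 TPM in CT26. Of the 11 neighboring pairs in its order of models, 8 did not overlap. KLN205 was also highest for Notch1, at 50.7, 70.5 and 74.9 TPM, above 25.0 and 31.6 TPM in MC38, and LL2 and B16F10 were lowest, between 6.06 and 7.95 TPM. Among the models between these, neighbors overlapped.

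Renca was highest for Dll4, at 6.60, 6.63 and 6.64 TPM, followed by EMT6 with 4.20 to 5.14 TPM, and all later neighbors overlapped down to MC38 with 1.60 and 2.30 TPM. Notch4 was highest in EMT6 (15.9 to 18.8 TPM) and Renca (15.5 to 16.8 TPM), which overlapped, and lowest in B16F10 (2.68 to 7.55 TPM). Aplnr was highest in Renca (13.1 to 19.1 TPM), BNL (14.9 to 17.7 TPM) and EMT6 (7.68 to 15.4 TPM), which overlapped, and lowest in RAG (0.71 to 1.01 TPM). Hey1 was highest in BNL, at 8.64, 8.69 and 9.75 TPM, and between 0.40 and 3.96 TPM elsewhere. Unc5b ranged from 41.1 to 42.8 TPM in BNL down to 2.23 to 3.53 TPM in MBT2, which overlapped with B16F10 at 2.72 to 3.09 TPM. Apln was highest in CT26 (22.9 to 31.01 TPM), which overlapped with LL2 (14.6 to 29.6 TPM), and lowest in B16F10 (3.65 to 4.14 TPM). Esm1, CT26 apart, ranged from 0.69 TPM in KLN205 to 6.94 TPM in LL2, and its neighbors overlapped.

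**Figure D4:**
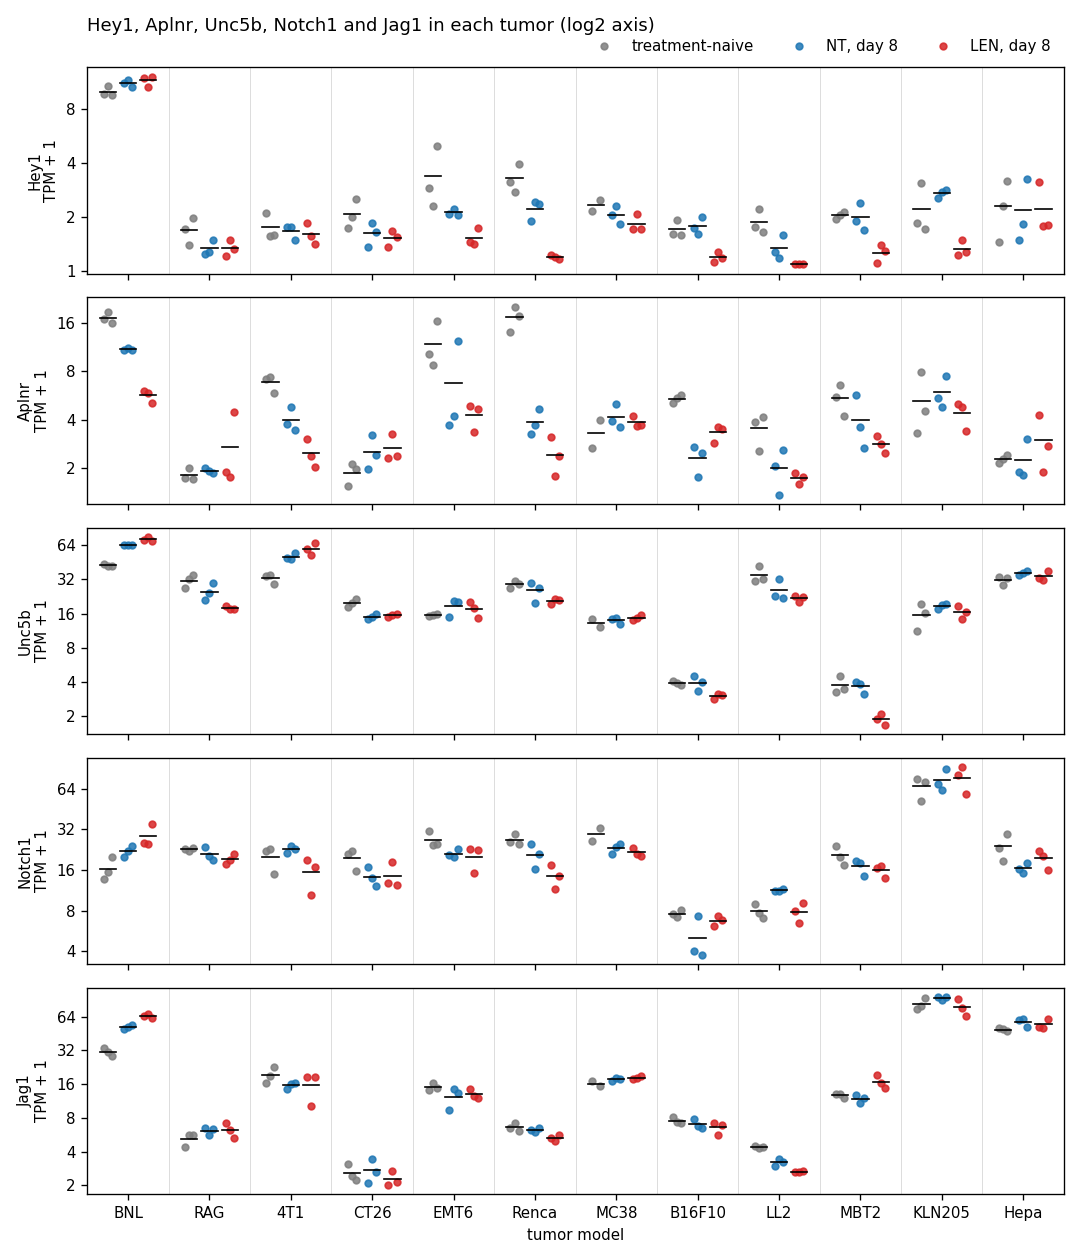
TPM + 1 of Hey1, Aplnr, Unc5b, Notch1 and Jag1 in each tumor on a log2 axis, by model, for treatment-naïve (gray), NT (blue) and LEN (red) tumors. Bars mark the group means. Differences between models exceed those between groups for Unc5b, Notch1 and Jag1, with Jag1 from 1.02 TPM in CT26 to 94.2 TPM in KLN205.

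Over the 12 treatment-naïve model means of log2(TPM + 1), Notch4 (Pearson r = 0.925, Spearman rho = 0.902) and Dll4 (r = 0.860, rho = 0.825) went with the mean of the 8 pan-endothelial genes. For Aplnr r was 0.785 and rho 0.713, and for Hey1 r was 0.669 and rho 0.734. Unc5b (r = 0.416, rho = 0.455), Jag1 (r = 0.337, rho = 0.350) and Notch1 (r = 0.115, rho = 0.161) showed weaker relations, and for Esm1 (r = -0.219, rho = 0.119) and Apln (r = -0.165, rho = 0.0420) r and rho differed in sign. Without Renca and BNL, the 2 models farthest from the median of the EC mean, r was 0.889 for Notch4, 0.893 for Dll4, 0.601 for Aplnr and 0.602 for Hey1. These are descriptions, since values of the same tumor share its library and its scaling to a common total.

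The genes whose pattern was most like that of each member were found by Pearson r of log2(TPM + 1) over the 36 means of model and group, among genes that averaged 1 TPM or more. Closest to Dll4 were Robo4 (r = 0.914), Emcn (0.906) and Tie1 (0.880), all expressed by ECs. For Notch4 they were the endothelial genes Plvap (0.844), Ptprb (0.843) and Rasip1 (0.835), and for Aplnr they were Tek (0.858), the angiopoietin receptor, with Grrp1 (0.828) and Rasip1 (0.822). Of these, only Emcn and Tie1 are among the 8 pan-endothelial genes. For Esm1 they were RP24-236E2.3 (0.888), Bcl6b (0.884) and Rarres1 (0.869). For Apln they were Gm7206 (0.739), Rbpj (0.735), the DNA-binding partner of Notch, and RP23-442M18.5 (0.706). For Hey1 they were Mn1 (0.943), Rftn2 (0.908) and Nsg1 (0.904), and for Unc5b a gene with a clone name only (0.928), Tle2 (0.904) and Bmp1 (0.832). The r of Esm1 and Hey1 weigh a single model heavily. Group means of Esm1 were 139 to 232 TPM in CT26 and at most 9.27 TPM elsewhere. Those of Hey1 were 9.03 to 10.6 TPM in BNL and at most 2.39 TPM elsewhere. For Jag1 they were Efnb1 (0.939), 5730559C18Rik (0.864) and Myzap (0.854), and for Notch1 Gna15 (0.895), Crlf2 (0.890) and Gm44260 (0.858).

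Of 30 other genes of the Notch pathway, 26 were tested, of which LEN lowered 6, raised 5 and left 15 short of the test, with a median log2 difference of 0.026, where 9.87% of all genes were called lower and 13.7% higher. The largest falls were those of Nrarp, a feedback inhibitor and target of Notch (-0.37, SE 0.0515, adjusted p = 1.21e-07, 11 of 12 models lower), Mfng, a glycosyltransferase that modifies Notch (-0.30, SE 0.0642, adjusted p = 0.000303), and Notch3, a receptor of mural cells (-0.25, SE 0.0412, adjusted p = 4.06e-06). The largest rises were those of Lfng, a related glycosyltransferase (0.19, SE 0.0596, adjusted p = 0.0144, higher in 5 and lower in 7 of 12 models), Numbl, a relative of the Notch inhibitor Numb (0.14, SE 0.0409, adjusted p = 0.0068), and Adam17, a protease that can cleave Notch (0.14, SE 0.0341, adjusted p = 0.00112). The general Notch target Hes1 had a log2 difference of 0.015 (adjusted p = 0.905). Dll3, Hes5, Hey2 and Dtx1 were under the minimum and were not tested.

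Of 16 other genes reported for tip cells, all were tested, and LEN lowered 7 and raised 3, with a median log2 difference of -0.13. Nid2, a basement membrane protein, fell by 1.26 (SE 0.0574, adjusted p = 1.07e-23) in 12 of 12 models, from a median of 7.97 TPM in NT to 2.98 TPM in LEN. Kcne3, a potassium channel subunit, fell by 0.99 (SE 0.0846, adjusted p = 1.56e-13), and Mcam, an adhesion molecule of ECs and pericytes, by 0.84 (SE 0.0625, adjusted p = 1.55e-15). Nid2 was also lower relative to the pan-endothelial mean (-0.40, SE 0.0370, adjusted p = 7.31e-15), as the only gene of this list. Plaur, the urokinase receptor, rose by 0.45 (SE 0.0437, adjusted p = 8.02e-12), and the peptide gene Adm by 0.41 (SE 0.104, adjusted p = 0.00234), both also made by myeloid or cancer cells. Rgcc rose by 0.24 (SE 0.0786, adjusted p = 0.0183). The 3 rises stand beside the 13.7% of all genes that were called higher, and the 7 falls beside the 9.87% called lower.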

How the data were processed

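RNA was sequenced from 107 tumors after ribosomal RNA depletion. The authors trimmed reads with Trimmomatic 0.36, mapped them with STAR 2.5.2b to mm10 (GRCm38), estimated expression with RSEM 1.2.31 and deposited TPM with 2 decimals for 50686 genes. Groups and replicate numbers were taken from the labels. Values were analyzed as log2(TPM + 1), with a pseudocount of 1, in limma 3.58.1 (R 4.3.3, trended empirical Bayes), keeping genes that averaged 1 TPM or more in the tumors of the fit, with a group per model and condition. The contrasts were the mean over models, an F test between models, and each model alone, with Benjamini-Hochberg adjustment over all genes tested at 0.05. Gene positions and overlaps came from GENCODE M21. The code was tested on simulated data. Alternatives were another pseudocount (0.1), minimum (none or 5), scaling, no trend, a replicate block, a pooled fit, and leaving out each tumor or model. Replicate numbers were not used to pair tumors in the main fits. The study names NovaSeq and NextSeq instruments, but which was used for each tumor was not given in the sources used here, so an instrument effect on any comparison, that of NT with treatment-naïve tumors included, could not be checked. The 9 genes and all lists were chosen with earlier results of these data known. Named are the 9 genes, the partners, the pan-endothelial genes, up to 3 called falls and 3 rises of the other lists, other-cell markers, and the 3 most alike genes of each member.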

Additional observations from a re-analysis of the deposited data

Results flagged for a closer look

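The effect of LEN against NT differed between the 12 models by limma's F test for 8 of the 9 genes, with an adjusted p of 2e-09 for Apln, 2.07e-09 for Esm1, 6.17e-05 for Unc5b, 0.000725 for Hey1, 0.00865 for Dll4, 0.0181 for Notch1, 0.0459 for Jag1 and 0.0493 for Notch4. Of all genes tested, 35.3% passed this test. Hey1 entered the test only through its level in BNL and was not tested without that model. Dll4 and Notch4 were lower in 12 of 12 models, so for them the models differed in the size of the fall. Esm1 was higher in CT26 and Apln in RAG, CT26 and MC38, though none of these rises passed with the model fitted alone. The level of Esm1 in CT26 was the highest of any model without treatment. The calls of Jag1 and Notch4 were lost when any of 46 and 54 of the 72 tumors was left out.

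The change from treatment-naïve to NT differed between models for 8 of the 9 genes, with an adjusted p of 1.66e-05 for Aplnr, 3.18e-05 for Jag1, 4.83e-05 for Unc5b, 0.00054 for Notch1, 0.00096 for Esm1, 0.00482 for Dll4, 0.0115 for Apln and 0.0123 for Notch4, where 66.5% of all genes passed. Without LL2 the value for Esm1 was 0.0786, and without EMT6 that for Notch4 was 0.0774.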

How the results depend on the processing

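Under LEN the number of members lower was 6, and 0 higher, and it stayed within 6 to 7 when any of the 72 tumors was left out, and within 5 to 7 when any model was. No setting reversed the sign of Esm1, Dll4, Notch4, Apln, Hey1 or Unc5b in that comparison. Jag1 changed sign without CT26 (0.0015), KLN205 (0.0058), LL2 (0.0053) or Renca (0.0004991), and ranged from -0.034 to 0.0058 over the tumors left out. In the growth comparison, the sign of Jag1 changed after rescaling by the upper quartile (-0.038) or over protein-coding genes (-0.050) and without BNL (-0.046), Hepa (-0.00071) or RAG (-0.0029), and that of Unc5b with both rescalings (-0.00025 and -0.010). The 4 members lower there became 1 with no minimum, 2 with a minimum of 5, 1 without CT26, EMT6, MC38 or Renca, and 2 without LL2 or RAG, and ranged from 1 to 4 over the tumors left out. The 2 members lower relative to the pan-endothelial genes became 1 with a minimum of 5, where Dll4 was not tested, and 1 without B16F10, EMT6 or Renca. The 8 members whose LEN effect differed between models became 4 without BNL, where Hey1 was under the minimum and not tested, and 5 without MC38, and ranged from 6 to 9 over the tumors left out. Fitted by model, the 12 lower pairs became 5 with a minimum of 5 and ranged from 11 to 13 over the tumors left out. They became 33 in the fit of all day 8 tumors, where more pairs were tested. The single higher pair became 0 after upper quartile rescaling and 0 in the joint fit, and ranged from 1 to 2. Over all genes, the 2371 called higher under LEN became 1440 without BNL, and in the growth comparison the 2002 lower became 951 with a minimum of 5 and the 2971 higher became 1950 without EMT6 and 1765 without KLN205. The 2 members higher there stayed within 2 to 3 when any model was left out. Relative to the pan-endothelial genes, the 17113 higher became 37437 with no minimum and 11060 with a minimum of 5, as more and fewer genes were tested. The cause of the other changes was not tested. The labels do not say whether tumors with the same replicate number are paired. Over 20 NT and LEN pairs with the same number, deviations from the group means correlated between -0.0762 and 0.0763. With the replicate number as a block, the correlation within blocks was 0.0814 for LEN minus NT and 0.306 relative to the pan-endothelial genes. With a replicate block no member changed its call in any comparison, 6 members were lower under LEN, and 1817 genes of 17351 were called lower. TPM keeps no depth, so the precision of members near 0, such as Hey1 and Esm1 under LEN, is unknown.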
